A study of Mus musculus with 6 samples.

Results

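The synaptic vesicle release machinery was followed here through 38 genes chosen by name, of 23284 genes in the count table. They cover 3 synapsins, 5 other vesicle membrane proteins, 4 SNARE proteins, 12 synaptotagmins, 3 complexins, 6 active zone and priming proteins, 2 SNARE disassembly factors and 3 Rab3 or C2-domain effectors. All 38 had enough counts to enter the test, and the smallest count of any of them in any library was 187 (Sv2c). RNA was taken from prefrontal cortex of mice of the inbred strain C57BL/6, wild-type, aged 8 to 10 weeks and kept for 6 days either alone (single-housed, 3 libraries) or with other mice (group-housed, 3 libraries). No allele or drug is named for either group, and housing is the only difference between the groups in the labels. Whether every library stands for a separate animal is not in the labels, and p-values therefore reflect library-to-library spread, part of which may be technical.

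Neurons store transmitter in synaptic vesicles, which synapsins tether and which carry synaptophysin, SV2 and synaptobrevin in their membrane. At the active zone RIM, Munc13, Bassoon and Piccolo organise docking and priming. Synaptobrevin then pairs with SNAP-25 and syntaxin in the SNARE complex that fuses the membranes, complexin clamps and assists that complex, a synaptotagmin senses calcium and triggers fusion, and NSF with SNAP proteins takes the spent complex apart. Most of these proteins come as several paralogs that differ between neuron types, so which paralog dominates in a tissue is one of the things a count table of bulk tissue can show.

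Total counts were 25858355 to 33428512 per library, and the 38 genes together held 2.30% to 2.45% of them. Values are CPM, reads of a gene scaled to a fixed library total, after TMM scaling, always listed for single-housed replicates 1, 2 and 3 and then group-housed replicates 1, 2 and 3. Levels of different genes are compared only as CPM per kilobase of the deposited exon length. Differences are log2 of single-housed over group-housed, with SE and 95% interval from edgeR's quasi-likelihood fit across 15258 genes. The libraries differed in tissue markers: the mean log2 CPM of 17 striatal projection neuron genes was 6.17 and 5.15 in single-housed replicates 1 and 2 and 5.04 in group-housed replicate 1, but 3.21, 3.17 and 3.58 in the other 3 libraries. The mean of the cortical excitatory neuron markers, the labelled tissue's own, spanned 6.50 to 6.65 over all 6 libraries, but single markers of that list did not stay level. Bcl11b was at 128, 97.2 and 83.4 CPM in the striatal-rich libraries and 61.3 to 67.1 CPM in the others, while Rasgrf2 was at 174, 174 and 140 CPM there and 221 to 256 CPM in the others.

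No gene of the release machinery was called for housing: 0 of 38 passed edgeR's test at an adjusted p of 0.05, as did 0% of all genes tested. At an unadjusted p of 0.05 the count was 1 of 38, Synpr, beside 1.56% of all genes, and Synpr was also the only member whose 2 groups did not overlap, beside 4.86% of all genes. With 1 library left out, the count at an unadjusted p of 0.05 was 5 without single-housed replicate 3 (Sv2c, Syt6, Syt9, Unc13c and Doc2b), 2 without group-housed replicate 1 (Synpr and Snap25), 2 without group-housed replicate 2 (Syn3 and Pclo) and 0 without any of the others. All genes gave 3.15%, 3.41% and 5.22% in the first 3 of these fits. Of the 38, 20 were higher and 18 lower in single-housed libraries. Their median log2 difference was 0.00, with a range from −0.11 to 0.62, and the median over all genes was also 0.00. The median size of the difference, sign ignored, was 0.05 for the members and 0.06 for all genes. For 33 of the 38 the 95% interval lay within a 1.5-fold change in either direction. The same held for 12109 of all 15258 genes, and for 9529 of the 9887 genes at or above the lowest member's mean CPM. The other 5 members were Sv2c, Syt6, Cplx3, Unc13c and Doc2b, for which these 6 libraries leave room for larger differences. The adjusted p from edgeR was 0.9999 for every member.

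**Figure D1:**
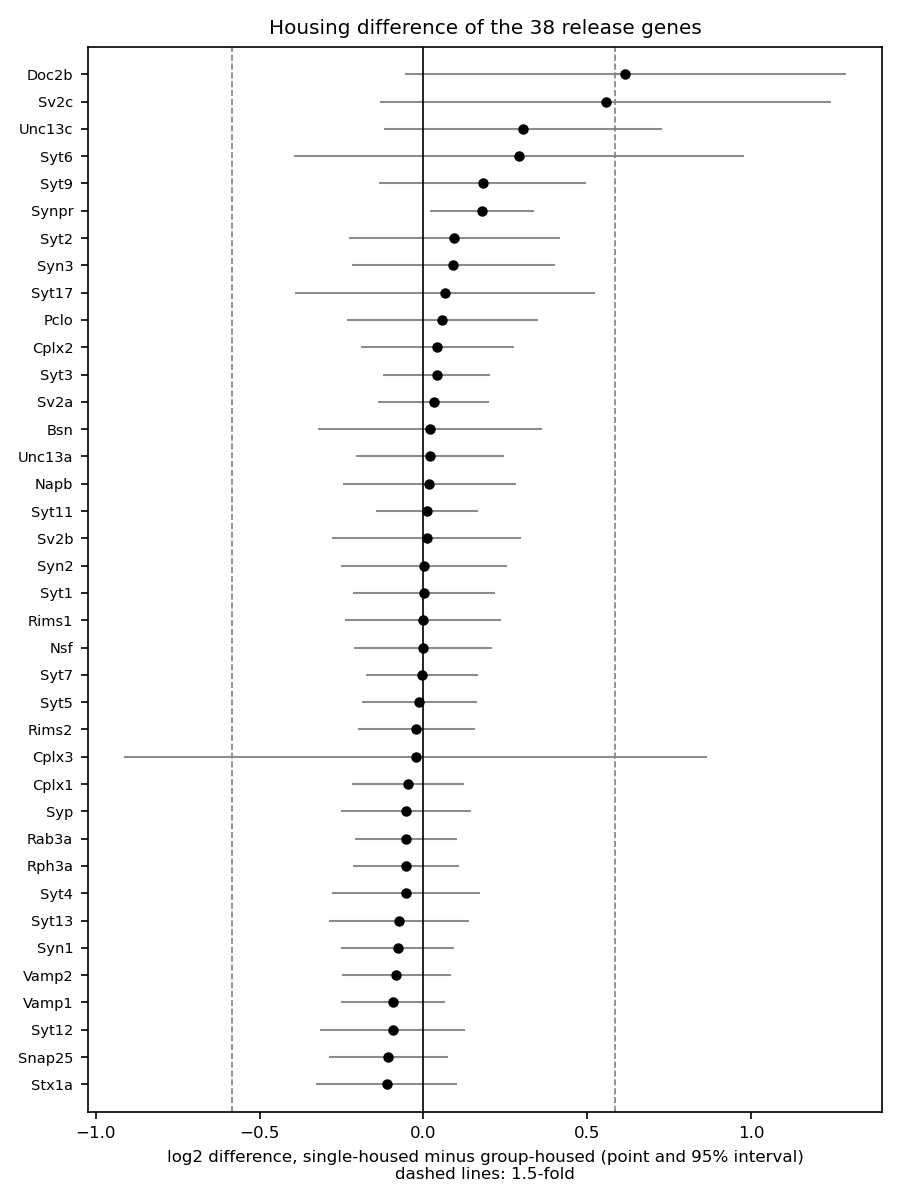
Log2 difference between single-housed and group-housed libraries (horizontal axis) for each of the 38 release genes (rows), with points for the fitted difference, bars for its 95% interval and dashed lines at 1.5-fold. Points run from −0.11 to 0.62, and the bars of 5 genes reach past a dashed line.

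**Figure D2:**
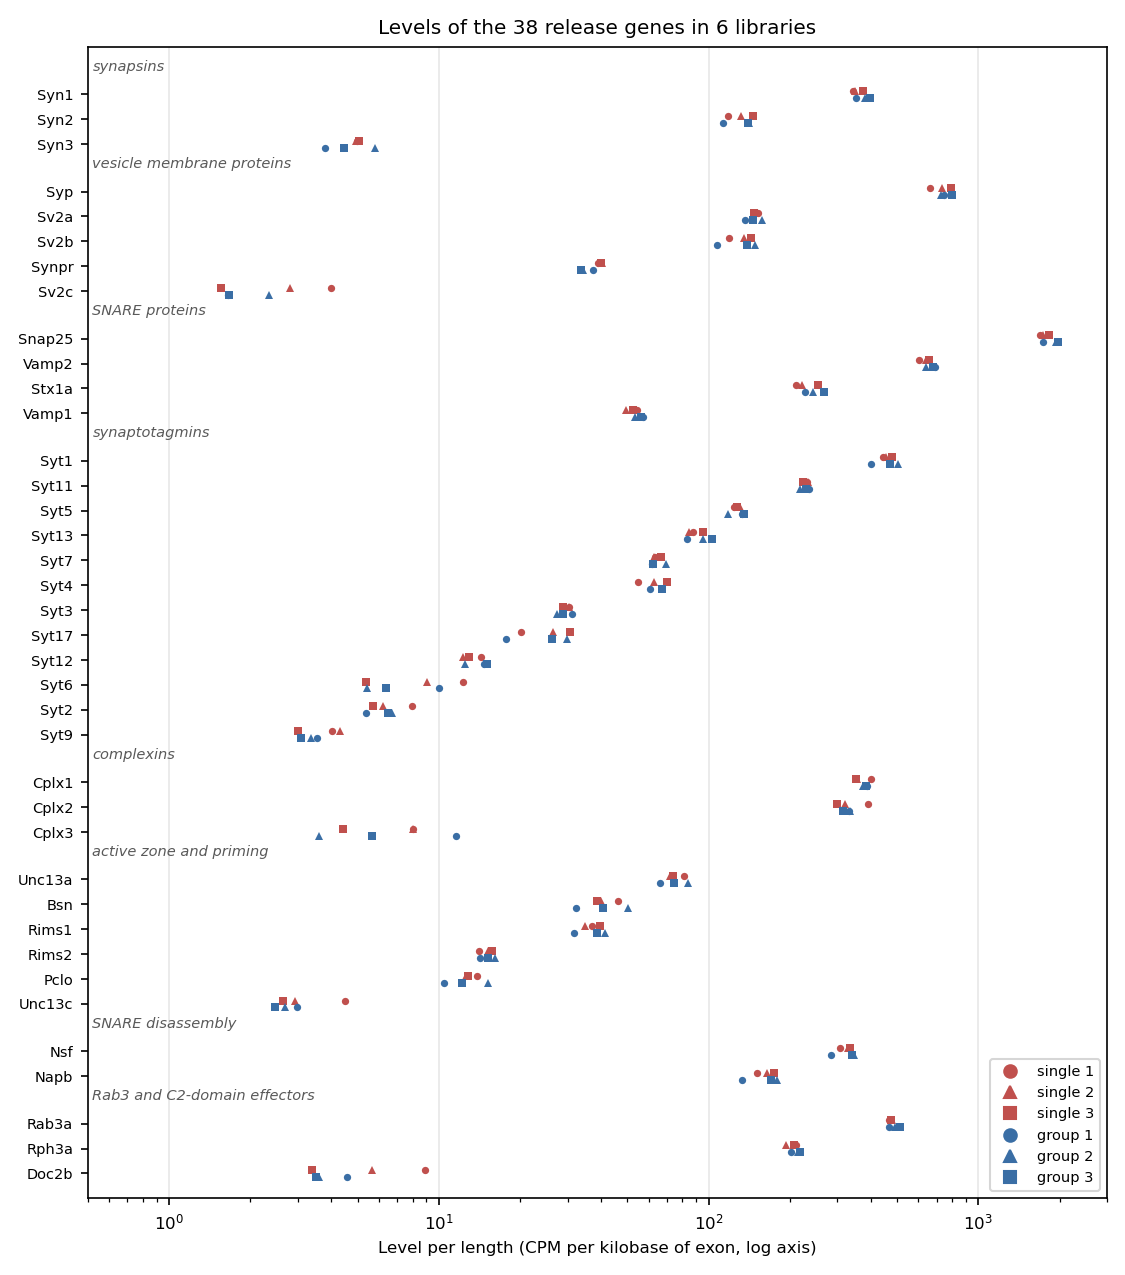
Level per length of the 38 release genes (horizontal log axis, CPM per kilobase of exon), 1 point per library, with the 3 single-housed and 3 group-housed libraries marked apart. Snap25 is highest at a mean of 1816 and Sv2c lowest at 2.34, and within a gene the 6 points lie close together except for the low genes.

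The synapsins coat vesicles and hold them in the reserve pool. Syn1 was at 1106, 1126 and 1201 CPM in single-housed and 1130, 1226 and 1270 CPM in group-housed libraries. The groups overlapped, with a log2 difference of −0.08 (SE 0.0762, 95% interval −0.25 to 0.09). Per kilobase Syn1 was the highest synapsin, at 356 ± 15.5 CPM in single-housed mice and 376 ± 22.3 CPM in group-housed mice (SD, n = 3 each). Syn2 followed at 132 ± 13.8 and 132 ± 15.9 CPM per kilobase (SD, n = 3 each), with a log2 difference of 0.00 (SE 0.111). Syn3, the least abundant synapsin, was at 58.8, 58.5 and 59.9 CPM in single-housed and 44.9, 68.7 and 52.6 CPM in group-housed libraries. Its single-housed values lay inside the group-housed spread, and the log2 difference was 0.09 (SE 0.137, 95% interval −0.22 to 0.40). In the deposited table Syn1 lies on mm9 chrX:20437637-20498044, Syn2 on chr6:115084920-115232644 and Syn3 on chr10:85511491-85961641. On chromosome X, 11 exon bases of Syn1 (0.342%) overlap Araf on the opposite strand.

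The Syn1 promoter is known for a cyclic AMP response element, the site bound by CREB, and the window of RefSeq (GRCm38.p6) from 250 bases before to 50 after the start was searched for its 8 letters, TGACGTCA. Of 38 members 27 had such a window, 39 windows in all, and Syn1 was the single member with a match. It accounts for 2.56% of the members' windows, beside 1.79% of 32851 windows genome-wide. The match starts 159 bases before the Syn1 start. The 60 bases around it lie on the minus strand at chrX:20921044-20921103. They are printed with the 8 letters in capitals because this is the one element of its kind in the set.
Syn1: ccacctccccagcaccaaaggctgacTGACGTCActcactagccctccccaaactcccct
The GC box GGGCGG, on either strand, was in 59.0% of the members' windows and 35.7% of all windows, and the median GC content was 62.3% and 52.7%. TATAAA was in 5.13% of the members' windows, both of them of Sv2b, and 13.6% of all windows. Some genes have several overlapping windows, and no difference between these shares was tested.

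Among vesicle membrane proteins, synaptophysin (Syp), the classical vesicle marker, was at 1641, 1825 and 1967 CPM in single-housed and 1856, 1802 and 1977 CPM in group-housed libraries. The 2 groups overlapped throughout, and the log2 difference was −0.05 (SE 0.0868, 95% interval −0.25 to 0.14). With 730 ± 66.0 and 757 ± 36.2 CPM per kilobase (SD, n = 3 each) Syp ranked second of the 38 genes. Its relative synaptoporin (Synpr), which marks certain vesicle populations, was at 115, 118 and 118 CPM in single-housed and 110, 101 and 99.2 CPM in group-housed libraries. Every single-housed library was above every group-housed one, although the gap between single-housed replicate 1 and group-housed replicate 1 was small. Means were 117 ± 1.92 and 103 ± 5.83 CPM (SD, n = 3 each), and the log2 difference was 0.18 (SE 0.0699, 95% interval 0.02 to 0.34, adjusted p = 0.9999 by edgeR). Without 1 library at a time the Synpr difference ranged from 0.15 to 0.23, and with the striatal marker mean as a covariate it was 0.17 (SE 0.0769). Synpr lies on mm9 chr14:14117294-14447983 and Syp on chrX:7215706-7230382.

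SV2 proteins are transporter-like vesicle glycoproteins. Sv2a ranged from 536 to 617 CPM with a log2 difference of 0.03 (SE 0.0748). Sv2b ranged from 613 to 851 CPM with a log2 difference of 0.01 (SE 0.127). Sv2c, the paralog known from the basal ganglia, had the lowest level per length of all 38 genes and was at 17.0, 11.9 and 6.63 CPM in single-housed and 7.03, 10.0 and 7.08 CPM in group-housed libraries. Single-housed replicate 1 stood highest and single-housed replicate 3 lowest, with means of 11.8 ± 5.19 and 8.04 ± 1.71 CPM (SD, n = 3 each). The log2 difference of Sv2c was 0.56 (SE 0.302, 95% interval −0.13 to 1.24), 0.20 without single-housed replicate 1 and 0.84 without single-housed replicate 3. It lies on mm9 chr13:96729398-96902532.

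All 4 SNARE genes had small negative differences, from −0.11 to −0.08 with a median of −0.10, and none passed the test. Snap25, which supplies a pair of helices to the complex from the plasma membrane, had the highest level of the 38 genes. It was at 3587, 3667 and 3866 CPM in single-housed and 3669, 4107 and 4195 CPM in group-housed libraries, or 1749 ± 67.8 and 1883 ± 133 CPM per kilobase (SD, n = 3 each). The groups overlapped, and the log2 difference was −0.11 (SE 0.0802, 95% interval −0.29 to 0.08). Stx1a, syntaxin of the presynaptic membrane, was at 437, 459 and 525 CPM in single-housed and 473, 507 and 555 CPM in group-housed libraries, with a log2 difference of −0.11 (SE 0.0947, 95% interval −0.33 to 0.10). Here too the single-housed range reached into that of group-housed libraries. Snap25 lies on mm9 chr2:136539186-136608164 and Stx1a on chr5:135499442-135526969.

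Synaptobrevin, the vesicle SNARE, was present almost entirely as Vamp2, the forebrain paralog. Vamp2 had between 1302 and 1494 CPM and a log2 difference of −0.08 (SE 0.0728). Vamp1 was at 171, 156 and 165 CPM in single-housed and 180, 169 and 177 CPM in group-housed libraries, overlapping through single-housed replicate 1, with a log2 difference of −0.09 (SE 0.0698, 95% interval −0.25 to 0.07). Per length, Vamp2 exceeded Vamp1 by 11.1- to 12.9-fold in the 6 libraries and made up 92.4% of the pair. Their longest transcripts share no run longer than 18 bases. A stretch of 78 coding bases, read from GENCODE M21 transcripts (GRCm38) and counted from the first base of the start codon, is shown to let the 2 vesicle SNAREs be compared as a counter of reads sees them: Vamp1 bases 97 to 174 and Vamp2 bases 91 to 168, with the 11 differing bases in capitals.
Vamp1: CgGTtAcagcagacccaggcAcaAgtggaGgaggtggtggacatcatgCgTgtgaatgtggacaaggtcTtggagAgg
Vamp2: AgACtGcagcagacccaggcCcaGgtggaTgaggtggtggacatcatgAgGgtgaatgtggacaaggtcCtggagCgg
The 2 stretches are 85.9% identical in these conserved coding bases, and the differences are scattered over the stretch. Vamp1 lies on mm9 chr6:125165599-125172324 and Vamp2 on chr11:68902030-68905883.

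Of the 12 synaptotagmins, 7 were higher and 5 lower in single-housed libraries. None passed the test, and the median log2 difference was 0.01. Syt1, the fast calcium sensor of forebrain synapses, was at 2128, 2198 and 2301 CPM in single-housed and 1931, 2428 and 2261 CPM in group-housed libraries. Its single-housed values lay within the group-housed spread, and means per kilobase were 458 ± 18.0 and 458 ± 52.5 (SD, n = 3 each), a log2 difference of 0.00 (SE 0.0949, 95% interval −0.21 to 0.22). Syt1 made up 40.8% of the summed level per length of the 12 genes. Syt11, a family member that does not bind calcium, came next with 20.4%, then Syt5 with 11.5% and Syt13 with 8.17%. Syt1 exceeded Syt11 by 1.70- to 2.31-fold per length and Syt11 exceeded Syt5 by 1.70- to 1.86-fold, in 6 of 6 libraries each. Syt7, the high-affinity sensor of asynchronous release, and Syt4 held 5.74% and 5.68%, and neither was consistently the higher one, since Syt7 led in 3 of 6 libraries. Syt3 and Syt17 likewise exchanged places, with Syt3 higher in 4 of 6 libraries. Syt12 held 1.22% and Syt6, Syt2 and Syt9 less than that. Syt1 lies on mm9 chr10:107934706-108448031.

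The fast sensors differ in where they act, Syt1 in most forebrain neurons and Syt2 in the hindbrain and in fast-spiking interneurons. Syt2 was low, between 18.2 and 26.8 CPM or 0.572% of the listed synaptotagmins per length. A stretch of 86 coding bases, Syt1 bases 856 to 941 and Syt2 bases 859 to 944 (GENCODE M21, GRCm38), is given with its 17 differing bases in capitals to show how far the 2 transcripts of this pair can be told apart in counting.
Syt1: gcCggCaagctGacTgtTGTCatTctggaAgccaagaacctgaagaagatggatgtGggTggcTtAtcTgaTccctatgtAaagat
Syt2: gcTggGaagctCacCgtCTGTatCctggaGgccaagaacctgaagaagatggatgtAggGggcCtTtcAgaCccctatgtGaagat
The stretch is 80.2% identical and holds the pair's longest shared run, 26 bases. Over 80 within-family pairs, 2 shared any run of 30 bases, Cplx1 with Cplx2 and Syt2 with Syt7, and the largest share of a transcript that such runs made up was 0.137%.

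Syt11 was the steadiest of the 38 genes, between 996 and 1074 CPM, a 1.08-fold range that only 2.24% of all genes undercut. Syt9, an alternative fast sensor, was at 15.3, 16.4 and 11.5 CPM in single-housed and 13.5, 12.8 and 11.8 CPM in group-housed libraries, with a log2 difference of 0.18 (SE 0.139, 95% interval −0.14 to 0.50). Single-housed replicate 3 was the lowest of all 6, below every group-housed library, and the Syt9 difference was 0.32 without it and 0.085 without single-housed replicate 2. Syt17 was at 32.7, 42.7 and 49.6 CPM in single-housed and 28.6, 48.2 and 42.4 CPM in group-housed libraries, with replicate 1 lowest in either group. Its log2 difference was 0.07 (SE 0.201, 95% interval −0.39 to 0.52), and 0.30 (SE 0.115, adjusted p = 0.9997 by edgeR) with the striatal marker mean as a covariate. In that fit Syt17 was the 1 member with an unadjusted p under 0.05 by edgeR, and the share of all genes under it was not counted. Syt2, Syt3, Syt4, Syt5, Syt7, Syt12 and Syt13 had differences between −0.09 and 0.09. In Syt12, 466 exon bases (14.2%) overlap A930001C03Rik on the opposite strand, a gene with at most 0.164 CPM. Syt9 lies on mm9 chr7:114514304-114692169 and Syt17 on chr7:125525370-125587066.

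Complexins bind the assembled SNARE complex. Cplx1 was at 874, 781 and 770 CPM in single-housed and 849, 818 and 837 CPM in group-housed libraries, with a log2 difference of −0.05 (SE 0.0754, 95% interval −0.22 to 0.13). The group-housed values lay inside the single-housed spread. Cplx2 had more reads, from 1479 to 1922 CPM, with a log2 difference of 0.04 (SE 0.103). Its exons are longer, and per length the order turned. Cplx1 exceeded Cplx2 in 6 of 6 libraries, by 1.02- to 1.21-fold, and held 52.6% of the family against 46.5% for Cplx2. In raw counts Cplx2 held 66.0%, so which complexin leads depends on the length correction. Coding bases 1 to 89 of the pair hold its longest shared run of 32 bases and are printed with their 10 differing bases in capitals (GENCODE M21, GRCm38).
Cplx1: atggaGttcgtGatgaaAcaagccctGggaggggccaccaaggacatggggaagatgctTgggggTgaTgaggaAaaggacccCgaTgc
Cplx2: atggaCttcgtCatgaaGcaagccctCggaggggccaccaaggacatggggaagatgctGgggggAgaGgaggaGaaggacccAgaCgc
These 89 bases are 88.8% identical. Cplx1 lies on mm9 chr5:108947573-108979046 and Cplx2 on chr13:54472713-54485278.

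Priming and active zone genes had differences from −0.02 to 0.30, 4 higher and 2 lower, none past the test. Unc13a, the main Munc13 priming factor of cortical excitatory synapses, was at 645, 574 and 586 CPM in single-housed and 524, 666 and 591 CPM in group-housed libraries, and 75.6 ± 4.76 and 74.6 ± 8.98 CPM per kilobase (SD, n = 3 each). The single-housed values lay inside the group-housed spread, and the log2 difference was 0.02 (SE 0.0992, 95% interval −0.21 to 0.24). Bsn, the giant scaffold Bassoon, was at 738, 634 and 616 CPM in single-housed and 512, 798 and 648 CPM in group-housed libraries. Group-housed replicates 1 and 2 were the lowest and highest of the 6, and the log2 difference was 0.02 (SE 0.150, 95% interval −0.32 to 0.36). Piccolo (Pclo), its partner, had a difference of 0.06 (SE 0.128), and the RIM genes Rims1 and Rims2 had 0.00 (SE 0.105) and −0.02 (SE 0.0783). Unc13a exceeded Unc13c by 18.1- to 31.1-fold per length and made up 96.1% of the pair. Unc13b, which is not a member, was at 11.1 CPM per kilobase, above Unc13c at 3.03. Bsn made up 76.2% of its pair with Pclo. Unc13a lies on mm9 chr8:74150612-74195656 and Bsn on chr9:107998353-108092714.

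For Rims1 and Rims2 the order rests on the length used. With the deposited exon lengths, 4068 and 7940 bases, Rims1 held 71.0% of the pair. With the longest GENCODE M21 transcript of each gene, 6446 and 4800 bases, it held 48.4% and was above 50% in 1 of 6 libraries. For Sv2a the share moved from 52.6% to 49.5% in the same way, so the order within either pair depended on the length used. Under that same length, chosen after these values were seen, the leading shares of Vamp2 (91.9%), Unc13a (95.5%), Bsn (74.4%), Syn1 (63.5%), Cplx1 (52.6%) and Syt1 (42.1%) had the same gene first. Snap25, Syp and Vamp2 were the 3 highest of the 38 under either length.

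**Figure D3:**
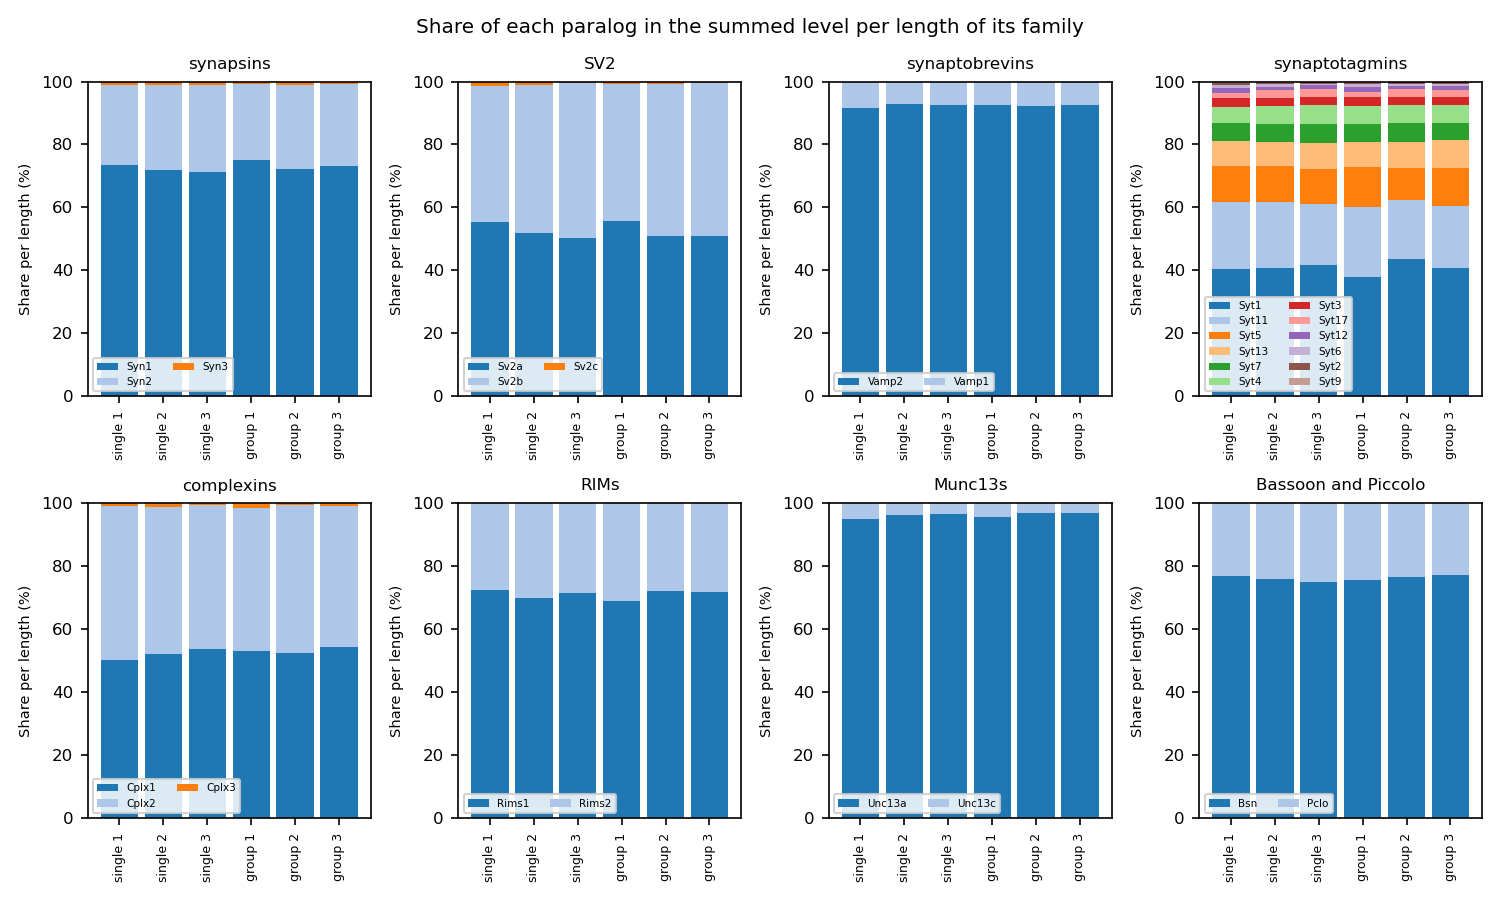
Share of each paralog in the summed level per length of its family (vertical axis, percent) in each of the 6 libraries, 1 panel per family, with the single-housed and then the group-housed libraries along the horizontal axis. The stacks look alike across libraries, with Vamp2 at 92.4% and Unc13a at 96.1% on average, and with all 6 libraries no share separated the 2 groups.

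Of 29 paralog shares, 0 had groups that did not overlap. With 5 libraries the number was 4 without single-housed replicate 1, 4 without single-housed replicate 3, 3 without group-housed replicate 1, 3 without group-housed replicate 2 and 0 without either of the remaining libraries. The smallest p belonged to the complexins (Cplx2), whose first member Cplx1 was at 51.9 ± 1.77% of the family in single-housed mice and 53.3 ± 0.958% in group-housed mice (SD, n = 3 each). Over the 29 shares, exact two-sided permutation p-values ranged from 0.3 to 1, where 3 against 3 cannot go below 0.1. No paralog's share differed between the housing groups by more than the spread of the libraries.

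NSF and the alpha/beta-SNAP family recycle the SNARE complexes. Nsf was at 1152, 1241 and 1257 CPM in single-housed and 1069, 1303 and 1282 CPM in group-housed libraries, or 323 ± 15.1 and 324 ± 34.4 CPM per kilobase (SD, n = 3 each). Single-housed values lay inside the group-housed spread, and the log2 difference was 0.00 (SE 0.0925, 95% interval −0.21 to 0.21). Napb, beta-SNAP, had a difference of 0.02 (SE 0.117) and stood below Nsf by 1.91- to 2.13-fold per length. Rab3a, the vesicle GTPase, was at 675, 694 and 689 CPM in single-housed and 680, 710 and 746 CPM in group-housed libraries, a 1.10-fold range over all 6. Its groups overlapped, with a log2 difference of −0.05 (SE 0.0689, 95% interval −0.21 to 0.10). Rph3a, the Rab3 effector rabphilin, ranged from 802 to 898 CPM with a difference of −0.05 (SE 0.0713). Nsf lies on mm9 chr11:103683097-103815370 and Rab3a on chr8:73278578-73282585, where 38 of its exon bases (2.62%) overlap Mpv17l2 on the opposite strand.

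A second kind of variation crossed the housing groups. Doc2b, Syt6, Unc13c and Cplx3 were all highest in single-housed replicates 1 and 2 and group-housed replicate 1, the libraries rich in striatal markers. So were Syt3, Syt9 and Syt11, over narrower ranges of 1.135-, 1.425- and 1.078-fold across all libraries. Doc2b, a calcium sensor of spontaneous and asynchronous release, was at 37.6, 23.9 and 14.3 CPM in single-housed and 19.4, 15.3 and 14.9 CPM in group-housed libraries. Single-housed replicate 3 fell below all group-housed libraries while single-housed replicate 1 was far above them. The log2 difference of Doc2b was 0.62 (SE 0.296, 95% interval −0.06 to 1.29), the largest of the 38. Syt6 was at 54.3, 40.0 and 23.8 CPM in single-housed and 44.3, 23.9 and 28.2 CPM in group-housed libraries. Either group had both high and low libraries, and the log2 difference was 0.29 (SE 0.302, 95% interval −0.39 to 0.98). Unc13c, the Munc13 paralog best known from cerebellar granule cells, was at 36.1, 23.7 and 21.3 CPM in single-housed and 24.1, 21.7 and 19.9 CPM in group-housed libraries. Single-housed replicate 1 stood alone at the top, and the log2 difference was 0.30 (SE 0.187, 95% interval −0.12 to 0.73). Other members went the opposite way, lower in each of the striatal-rich libraries than in any other. They were Syn1, Syn2, Sv2b, Snap25, Stx1a, Syt1, Syt4, Syt13, Rims1, Rims2, Nsf and Napb. How many of all genes split between these libraries in either direction was not counted. Neither list is therefore shown to be a trait of the release genes.

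Cplx3, the complexin known from retinal ribbon synapses and from deep cortical and subplate neurons, had the widest range of the 38 genes, 3.22-fold, wider than 98.4% of all genes. It was at 23.0, 23.0 and 12.6 CPM in single-housed and 33.2, 10.3 and 16.1 CPM in group-housed libraries. Group-housed replicate 1 was the highest and group-housed replicate 2 the lowest, so the log2 difference of −0.02 (SE 0.392, 95% interval −0.91 to 0.87) had the widest interval of the set. The order of the libraries for Cplx3 was the same in 6 of 6 ranks as that of the oligodendrocyte marker list. That list's mean log2 CPM was 8.02, 8.00 and 6.95 in single-housed and 8.43, 6.93 and 7.64 in group-housed libraries. The layer 6b and subplate list had its top 3 in the same libraries as Cplx3. Its mean was 3.94, 3.95 and 2.95 in single-housed and 3.95, 3.01 and 3.39 in group-housed libraries. Its marker Ctgf was at 33.2, 38.6 and 17.7 CPM in single-housed and 47.3, 17.1 and 25.5 CPM in group-housed libraries. The low olfactory bulb list shared that top 3 too, at 1.83, 1.92 and 1.34 in single-housed and 1.77, 1.52 and 1.31 in group-housed libraries. Of its 9 genes, 3 were at 0 in 1 or more libraries. These orders are a description over 6 libraries that also share their striatal and myelin levels. Doc2b lies on mm9 chr11:75582592-75609559, Syt6 on chr3:103379204-103439102, Unc13c on chr9:73327231-73781374 and Cplx3 on chr9:57447799-57454088.

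Of the 17 striatal genes, 16 were higher in each of those 3 libraries than in each of the other 3, and their summed level ran from 474 to 2574 CPM in single-housed and from 511 to 1233 CPM in group-housed libraries. The oligodendrocyte list did the same for 9 of 9 genes, with sums of 2142 to 4505 and 2107 to 5811 CPM, and the layer 6b list for 5 of 6, with sums of 57.7 to 119.3 and 63.9 to 120.8 CPM. Of these 3 lists only Isl1, a striatal gene, was at 0 in a library, in single-housed replicate 3 and group-housed replicates 2 and 3. In a fit that also held the striatal list mean, the housing difference was 0.17 (SE 0.136) for Doc2b, 0.21 (SE 0.280) for Sv2c, −0.12 (SE 0.0823) for Syt6, 0.09 (SE 0.132) for Unc13c and −0.39 (SE 0.214) for Cplx3. Without the 3 libraries, leaving 1 single-housed against 2 group-housed, it was −0.07 for Doc2b, −0.37 for Sv2c, −0.13 for Syt6, 0.03 for Unc13c and −0.07 for Cplx3. The part of other tissue in these values was not tested beyond these fits. In bulk tissue, more cells of a type and more RNA per cell cannot be told apart.

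**Figure D4:**
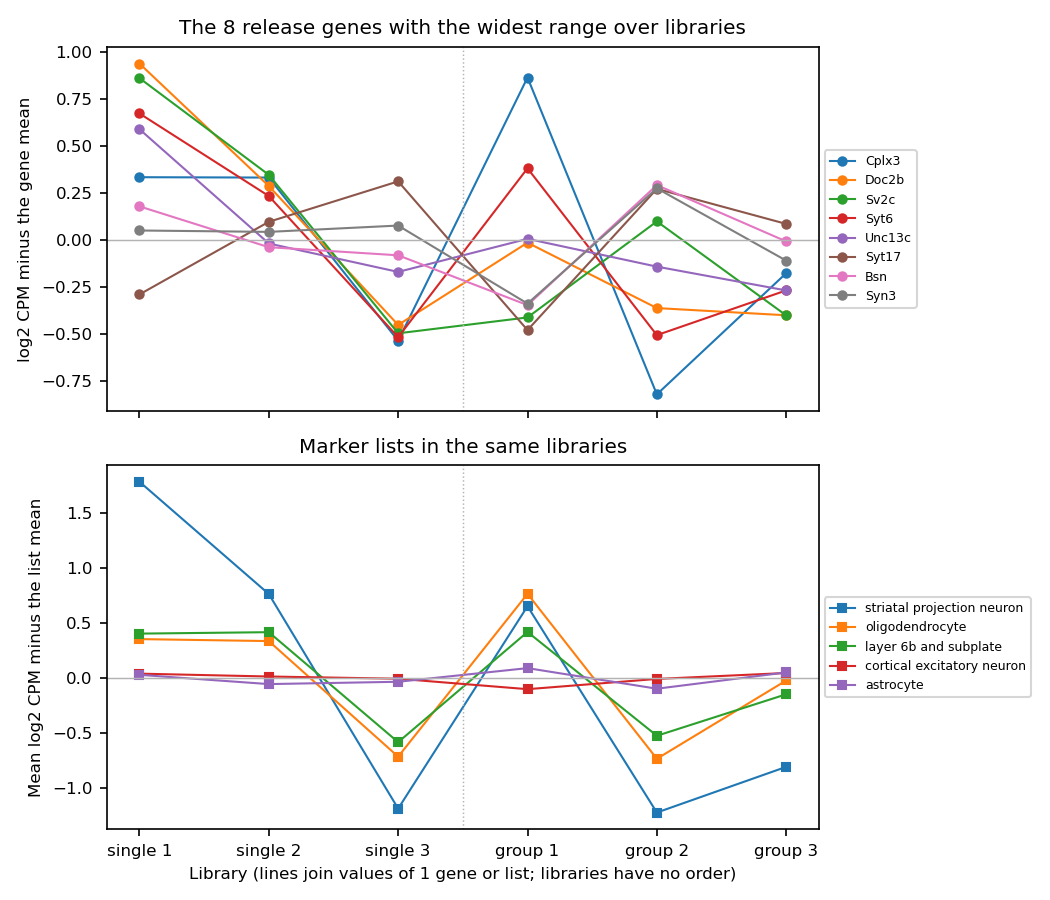
Upper panel: log2 CPM minus the gene's mean (vertical axis) of the 8 release genes with the widest range, in 6 libraries (horizontal axis). Lower panel: mean log2 CPM of marker lists, centred the same way. Doc2b, Syt6, Unc13c and Cplx3 have their 3 highest values in single-housed replicates 1 and 2 and group-housed replicate 1, where the striatal list reached 6.17, 5.15 and 5.04.

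Both Syt6 and Cplx3 hold the E-box CACGTG in their RefSeq promoter windows (GRCm38.p6), a motif present in 12.8% of the members' windows and 7.15% of all windows. The members with a match were Syt6, Cplx3, Sv2b and Nsf, 4 of the 27 members with a window. Syt6 counts with 2 overlapping windows that hold the same site, and no difference between these shares was tested. Sv2b and Nsf went the other way, lower in each striatal-rich library than in any other. Sv2b was at 680, 773 and 613 CPM in those libraries and 792 to 851 CPM in the others. Nsf was at 1152, 1241 and 1069 CPM there and 1257 to 1303 CPM in the others. Doc2b had no window in the table, and Unc13c had no match. Of Doc2b, Syt6, Unc13c and Cplx3, the 2 that hold the motif are shown with the 60 bases around it, the motif in capitals. These bases lie at chr3:103575185-103575244 (plus strand) for Syt6 and chr9:57606334-57606393 (minus strand) for Cplx3.
Syt6: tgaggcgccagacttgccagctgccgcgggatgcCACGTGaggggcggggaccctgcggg
Cplx3: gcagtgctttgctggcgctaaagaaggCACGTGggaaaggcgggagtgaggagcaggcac
The motif starts 26 bases before 1 annotated start of Syt6 and 85 bases before that of Cplx3. It reads the same on both strands, and whether any factor binds there was not measured.

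A further pattern lay between 2 libraries of the same housing group. Group-housed replicate 1 was lowest and group-housed replicate 2 highest of the 6 libraries for 11 of 38 members (Syn3, Sv2a, Sv2b, Syt1, Syt7, Rims1, Unc13a, Bsn, Pclo, Nsf and Napb), beside 11.9% of all genes. The log2 difference between those 2 libraries was 0.64 for Bsn, 0.61 for Syn3 and 0.55 for Pclo, all with exons over 8 kilobases. Unc13c, the fourth member of that length, was at −0.15, and the highest member was Syt17 at 0.75 with 1617 bases of exon. Over all genes it rose with exon length, from a median of −0.20 for 4437 genes under 2 kilobases to −0.02 for 6265 genes of 2 to 4, 0.13 for 3876 genes of 4 to 8 and 0.32 for 680 genes over 8 kilobases. The members' medians in these classes were 0.06 (3 genes), 0.03 (18 genes), 0.19 (13 genes) and 0.58 (4 genes). Between the housing groups the same classes had medians of −0.03, −0.00, 0.02 and 0.05. Group-housed replicate 1 was also the shallowest library, with 25858355 counts, and the part of depth in this pattern was not tested.

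**Figure D5:**
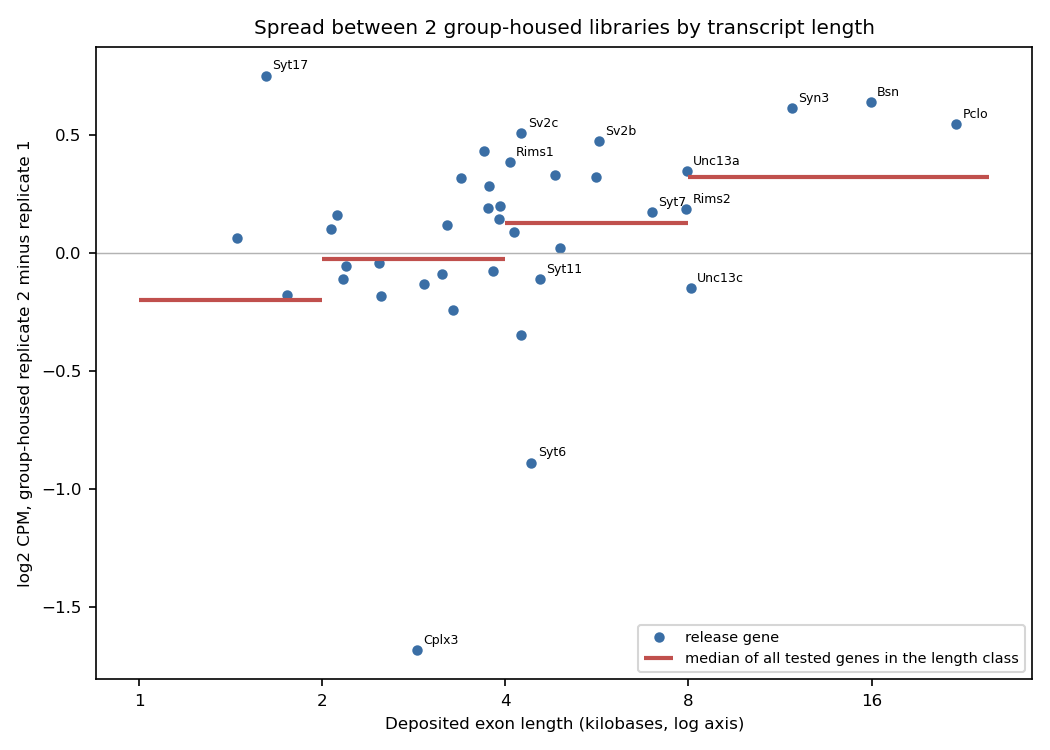
Log2 CPM of group-housed replicate 2 minus replicate 1 (vertical axis) against deposited exon length (horizontal log axis, kilobases), 1 point per release gene, with the median of all genes per length class as lines. The class medians rise from −0.20 under 2 kilobases to 0.32 over 8 kilobases, Bsn at 0.64 and Pclo at 0.55 lie at the long end, and Unc13c at −0.15 and the short gene Syt17 at 0.75 lie away from the class medians.

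Other genes of the vesicle cycle were read from 4 lists that hold no member. In each, 0 genes passed the test, 0 had an unadjusted p under 0.05 by edgeR and 0 had groups that did not overlap. Of the SNARE cycle and priming list 33 of 36 genes were tested, 12 higher and 21 lower, with a median log2 difference of −0.02. Its smallest p-values belonged to Syt15, Sytl4 and the vesicle priming factor Cadps2. Their log2 differences were 0.46 (SE 0.273), 0.39 (SE 0.343) and 0.11 (SE 0.0846). Syt15 and Sytl4 were low, at 0.59 to 1.35 CPM and 0.20 to 0.43 CPM. The list of active zone scaffold and Rab3 genes had 27 of 27 tested, 19 higher and 8 lower, median 0.02, with the scaffold Erc2 at 0.14 (SE 0.0904), liprin Ppfia4 at 0.11 (SE 0.0840) and Lin7b at 0.07 (SE 0.0672).

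Of the vesicle membrane, filling and acidification genes 27 of 29 were tested, 13 higher and 14 lower, median −0.00. The largest difference there was that of Slc18a3, the vesicular acetylcholine transporter that marks cholinergic neurons, at 1.49 (SE 0.708). It had 3.54, 1.56 and 0.540 CPM in single-housed and 1.35, 0.295 and 0.413 CPM in group-housed libraries. Its high libraries were again single-housed replicates 1 and 2 and group-housed replicate 1. Vat1l at 0.19 (SE 0.119) and Slc32a1, the vesicular GABA transporter, at 0.15 (SE 0.133) followed. In the endocytosis list 36 of 36 were tested, 21 higher and 15 lower, median 0.01, with Ston2 at 0.11 (SE 0.0928), the clathrin light chain Clta at −0.08 (SE 0.0730) and the adaptor subunit Ap2a1 at 0.08 (SE 0.0794). The 5 list genes left out had few or no counts, among them Vamp7 and Atp6v0c.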

How the data were processed

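The authors deposited unnormalized read counts for each gene and library, in featureCounts layout per the file headers. A length column, which is not a measurement of expression, equals the union of a gene's exons for 38 of 38 members. The tools were FastQC, STAR and featureCounts on mm9, per the submitters' processing notes. Tool versions, gene annotation and strand setting of the counting: not given in the sources used here. RNA was purified with RNeasy and made into TruSeq Stranded mRNA libraries, per the labels' protocols.

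Libraries were grouped by the housing label. edgeR 4.0.16 (R 4.3.3) with filterByExpr (minimum count 10, minimum total 15), TMM scaling and the quasi-likelihood F-test kept 15258 of 23284 genes, with Benjamini-Hochberg adjustment and a threshold of 0.05. The common biological coefficient of variation was 11.8% and the smallest adjusted p of any gene 0.606. SE came from the F statistic. Marker means are log2 CPM with a prior count of 2. No 2 libraries agreed within sampling noise. The test was run on simulated data first. Alternatives were DESeq2 1.42.0 (test, and size factors), limma 3.58.1 voom, other filters, a replicate block, a striatal covariate, leaving out libraries, raw counts for shares and, added later, transcript length from GENCODE M21.

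All members are named. Values in every library are given for the 8 of smallest p, the 8 of widest range and the highest per length in each of 8 roles, and of each further list the 3 genes of smallest p are named. The members and lists were chosen with earlier results of these data known. Of 12 marker lists, those without values in the text spanned 0.126 (other GABA interneuron) to 0.429 (thalamus) in mean log2 CPM over the libraries.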

Additional observations from a re-analysis of the deposited data

How the results depend on the processing

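In every alternative run 0 of 38 members were called. Over all genes the count of 0 became 8 with DESeq2's own test, 4 without the 3 libraries high in striatal markers, and 0 to 1 when 1 library was left out (1 without replicate 1 or without replicate 2 of the group-housed libraries). The members' median log2 difference of 0.00 became 0.036 with the striatal covariate and −0.039 without those 3 libraries, and ranged from −0.061 (without group-housed replicate 1) to 0.056 (without group-housed replicate 2). Replicate numbers did not pair the libraries: the correlations of deviations were 0.27, −0.32 and 0.17 for numbers 1, 2 and 3. With the replicate number as a block 0 members and 0 genes were called, the median was 0.01, and Cplx3 (0.067) and Nsf (0.0031) changed sign. Sign changes also came for Nsf with a mean CPM above 1 (8.0e-05), for Cplx3 (0.11) and Nsf (0.0029) with voom, and for Syt6 (−0.12) and Nsf (0.070) with the covariate. Without the 3 libraries the values that changed sign were Syn3 −0.018, Syp 0.059, Sv2c −0.37, Syt1 −0.026, Syt6 −0.13, Syt9 −0.093, Unc13a −0.10, Bsn −0.23 and Doc2b −0.070, in a fit of 1 against 2 that takes the single library's spread from the remaining 2. Leaving out 1 library at a time gave ranges of −0.038 to 0.28 for Syn3, −0.12 to 0.013 for Syp, −0.085 to 0.076 for Syt1, −0.012 to 0.59 for Syt6, −0.12 to 0.23 for Syt17, −0.33 to 0.56 for Cplx3, −0.063 to 0.11 for Unc13a, −0.13 to 0.19 for Bsn and −0.086 to 0.050 for Nsf. Doc2b ranged from 0.21 (without single-housed replicate 1) to 0.90 and Unc13c from 0.04 (without single-housed replicate 1) to 0.45. Members with groups that do not overlap numbered 1 to 9 with a library left out, and all genes then gave 8.99% to 22.7%. The most members, 9 (23.7%), came without group-housed replicate 2, where all genes gave 22.7%. The members' count at an unadjusted p of 0.05 was 2 with DESeq2's test and 2 with no filter. The share of all genes in these 2 runs was not counted. Syt9 ranged from 0.085 to 0.32. The cause of these shifts was not tested. Every member had at least 187 counts in each library.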
